A study of Capsicum chinense and Capsicum frutescens with 8 samples.

Results

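Of 3225 predicted miRNA sequences listed for 2 chilli peppers, 119 (3.69%) were listed as identical text in 2 or more of the 8 small RNA libraries, and they are the shared sequences described here. The other 3106 were listed in 1 library. The libraries came from stem, flower buds, fruit and leaf of 1 accession of Capsicum frutescens (Acc. 4), and from the same organs of 1 genotype of C. chinense, Bhut jolokia, a very pungent chilli. Both were glasshouse plants with contrasting fruit, and no plant was treated. Each library was made from pooled RNA of 3 biological replicates, and the fruit RNA pooled stages from 5 to 60 days after flower opening. There is thus 1 library per species and organ and no replicate of a group, so listings and reads are given without p-values. The 119 sequences were chosen by the measured listings themselves, as texts with reads in 2 or more lists, so which libraries hold them is a description.

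A plant miRNA is cut from the 5p or 3p arm of a folded precursor, the hairpin, by Dicer-like enzymes and is loaded into an Argonaute protein. The Argonaute that acts on most miRNAs prefers a first U, and canonical miRNAs are mostly 21 nt, with a 22 nt class that starts secondary small RNAs. Longer siRNAs of the DNA methylation pathway are mostly 24 nt and often begin with A. A sequence predicted from reads alone can belong to either class. Recurrence in another organ or species is 1 of the signs used to judge such predictions.

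The sequences below are those listed in 4 or more libraries, the 10 with the highest mean levels, those with most reads in an organ of both species, the 3 of each species alone in most libraries, and those with the highest or lowest species ratio in an organ. They are shown because the values below turn on them. They were named P1 to P119 by number of libraries and then by reads, because the deposited identifiers restart in every library. Each is written 5′ to 3′ with the seed, bases 2 to 8, in capitals.
P1: gAAAUCUUgccgauuccccccca
P2: uUUUUCACgaugaucgggguuac
P3: gUUUUGUGgcugagauuuuuccc
P4: uUUUGUGGcugagauuuuuccca
P5: cUCUCGUAcuagguugaauua
P6: cUUGGUGUagaggguuauaagc
P7: uCAACAUCgcucgaccguugaucc
P8: gCACAGGCgaggcugaagcacua
P9: uUUGUUCCgacuaucuuucgucu
P10: cGGUUCCUcucguacuagguug
P11: cUUUCGGUccacuggugagcuu
P12: cCCGCCAUgauagaugccauugu
P15: uUAGGAGAccccauugauaggcu
P16: cAUGUAACccggagaccucuuc
P18: gUUGUUGUcacuacugcuggugg
P23: aAGUCCUAguguugcaucucuu
P26: aUCUUGCCgauuccguccauaccgc
P27: uGGUGUGGgcggggcgggaagaua
P28: uCAUGUUAggcaggucugugaacc
P29: cGAGCCCCgcugggaccauaau
P66: uUCGAAUCcugccucucccacuug
P77: uUGCGUCGuugugccugggcugug
The 119 sequences had 116 different seeds. The 3 seeds that recurred joined P2 with P33, P34 with P112 and P66 with P99, each pair being texts of one stretch with different 3′ ends.

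Predicted reads were few beside the conserved miRNA entries listed for the same libraries. In C. frutescens stem, flower, fruit and leaf they numbered 2031, 2032, 15250 and 674. In C. chinense they numbered 2473, 6628, 1525 and 809 in the same organs. They made up between 0.0995% and 1.60% of all listed reads. The hairpin lists followed a minimum: in each of the 3217 numbered hairpins the better arm had at least 3 reads, and all 131 entries under 3 reads were the other arm of such a hairpin. A sequence missing from a list may therefore have had reads, and absence here means not listed. Levels are given as RPM, the reads per 1000000 listed reads, conserved and predicted together, and 3 reads equal 2.12 to 12.1 RPM depending on the library.

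Most sharing was narrow. Of the 119 sequences, 94 were listed in exactly 2 libraries, 17 in 3, 7 in 4 and 1 in 6, and no sequence was listed in 5, 7 or 8. The typical member had few reads, with a median of 15 over all its libraries and a range of 6 to 4037. Of the 273 listings, 68 (24.9%) stood at 3 reads, and 9 members had 3 reads wherever they were listed. Just outside the rule, 1512 of the sequences listed in 1 library (48.7%) also had 3 reads. Of the 273 listings of shared sequences, 90 (33%) had 10 or more reads, against 264 of the 3106 listings (8.5%) of sequences in 1 library. A hairpin is listed only where an arm has 3 or more reads, so sequences with more reads are listed in 2 libraries more readily. This contrast is therefore not independent of the rule.

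**Figure D1:**
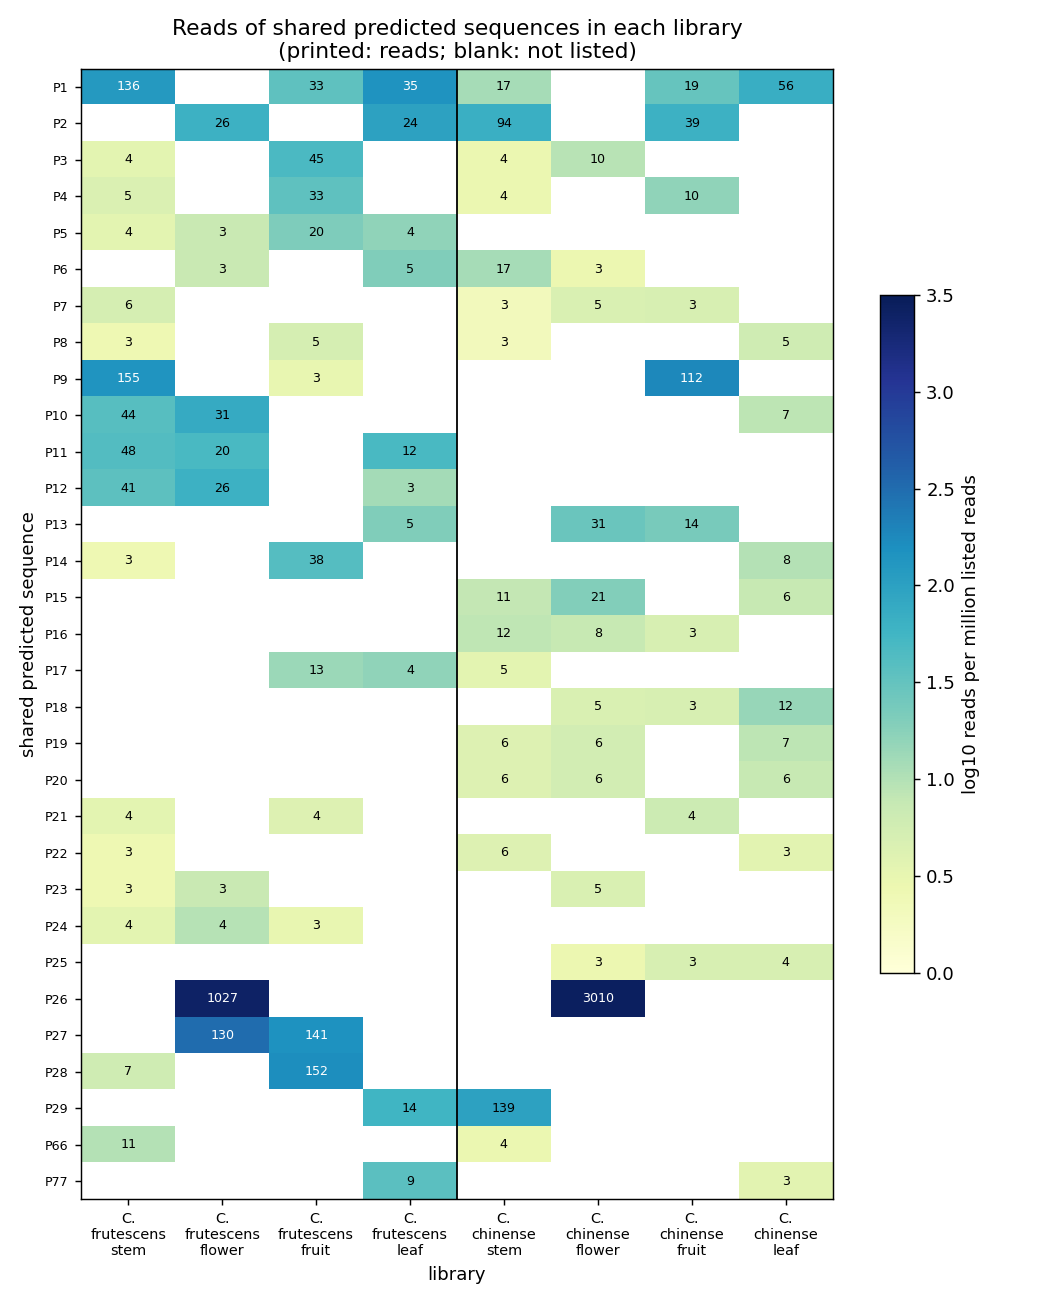
Reads of 31 shared sequences (rows: all listed in 3 or more libraries, and the 6 others printed in the first list of sequences) in the 8 libraries (columns), with colour for log10 RPM (reads per 1000000 listed reads) and blank cells for sequences not listed. P1 fills 6 columns and lacks only the flower columns, and P26 has 1027 and 3010 reads in the flower columns alone.

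Both species listed 54 of the shared sequences, C. frutescens alone listed 24 and C. chinense alone 41. Of the 54, 16 were found in the same organ of both species, and the other 38 had no organ in common between the species. Pairs of libraries across species are 4 of like organs and 12 of unlike organs. No such share is given for the conserved entries, so nothing is read from the 16 and 38. Stem lists of the species had 9 sequences in common, fruit lists 4, flower lists 3 and leaf lists 3. Within C. frutescens pairs of organs shared 4 to 16 sequences (median 6.5), and within C. chinense 5 to 16 (median 11). Across species, pairs of unlike organs shared 3 to 9 (median 6). The lists differ in length, from 89 sequences in C. frutescens leaf to 1227 in C. frutescens fruit, so counts of pairs cannot be read as closeness.

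As shares of each list, the 16 sequences common to C. frutescens stem and fruit were 6.11% of the stem list and 1.30% of the fruit list. The 16 common to C. chinense stem and flower were 3.71% and 1.97%. The 9 common to the stems were 3.44% of the C. frutescens list and 2.09% of the C. chinense list. In every pair the shared part was at most 8.99% of the shorter list, the value for leaf of C. frutescens beside its stem.

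**Figure D2:**
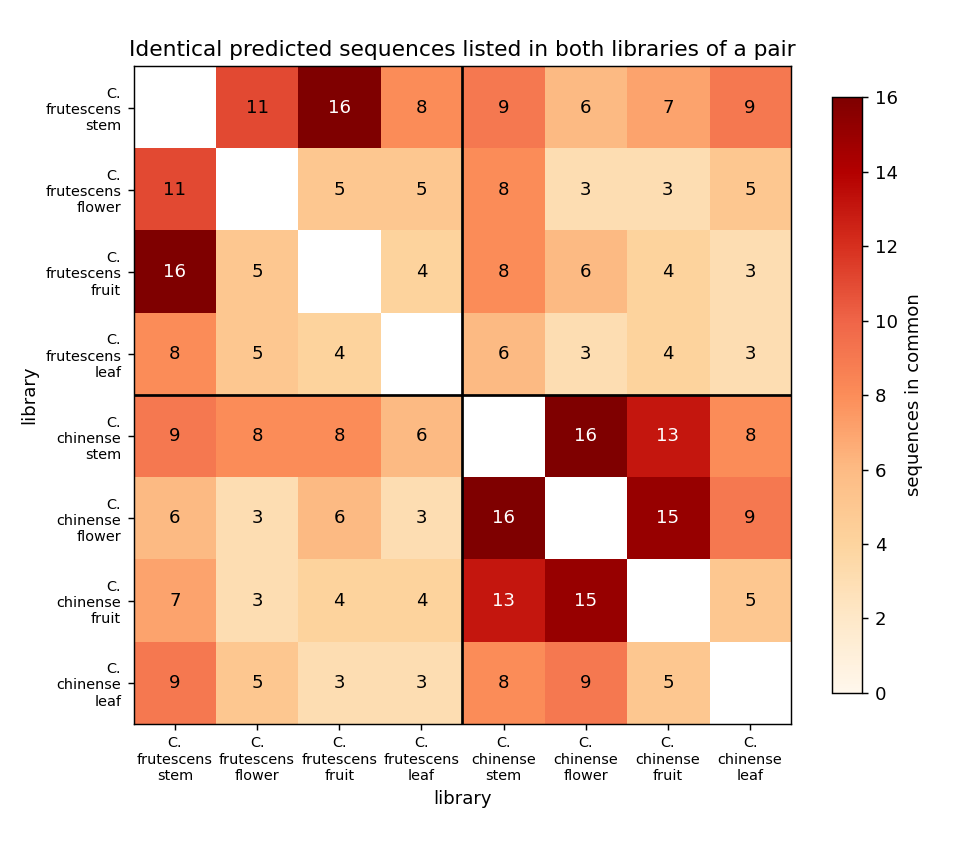
Number of identical predicted sequences listed in both libraries of each pair, for 4 organs of C. frutescens and of C. chinense (rows and columns, black lines between species). The highest counts, 16, stand within a species (stem and fruit of C. frutescens, stem and flower of C. chinense), and flower or leaf lists of the species share 3 each.

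By organ, 80 of the shared sequences were listed in stem of at least 1 species, 70 in flower, 60 in fruit and 44 in leaf. Flower and fruit alone, the reproductive organs, held 20 members, and stem and leaf alone held 13. The lists differ in length, so these counts do not rank the organs. As shares of each list, shared sequences were 16.4%, 21.3%, 2.36% and 21.3% in stem, flower, fruit and leaf of C. frutescens. In C. chinense the shares were 10.7%, 5.42%, 11.4% and 24.3%. The 6 members listed in a single organ, and so in that organ of both species, were P26 in flower, P66, P99 and P109 in stem, and P77 and P116 in leaf. P2 and P5 were the 2 members listed in all 4 organs when the lists of both species were pooled. Of P5, 4, 3, 20 and 4 reads were listed in stem, flower, fruit and leaf of C. frutescens, and none of the C. chinense libraries listed it. P5 overlaps P10, which had 7 reads in C. chinense leaf, by a run of 16 bases, in capitals here.
P5: CUCUCGUACUAGGUUGaauua
P10: cgguucCUCUCGUACUAGGUUG
The predicted texts were not compared with rRNA, tRNA or a genome, so whether these or other members come from another class of RNA was not tested.

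The weight of shared sequences differed widely between libraries. They took 36.9% (95% exact binomial interval 34.8 to 39.1) of the predicted reads in C. frutescens stem, 69.3% (67.2 to 71.3) in its flower, 4.07% (3.76 to 4.39) in its fruit and 21.7% (18.6 to 25) in its leaf. In C. chinense they took 23.4% (21.7 to 25.1) in stem, 52.5% (51.3 to 53.7) in flower, 29.2% (26.9 to 31.5) in fruit and 42.2% (38.7 to 45.6) in leaf. By the rule on identical texts, flowers were thus highest in both species and C. frutescens fruit lowest. The low value of C. frutescens fruit rests on that rule. It leaves out a 26 nt text with 4331 reads there, which is the shared flower text P26 with a further U. That fruit list was also the longest, with 29 shared sequences among 1227 (2.36%), and held 48.5% of all predicted reads. Reads carry no molecular identifiers, so these intervals and those below cover counting error only.

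One sequence took the largest part of the shared flower reads. P26, a 25 nt sequence of the 3p arm, had 1027 reads in C. frutescens flower, 50.5% of the predicted reads there, and 3010 reads in C. chinense flower, 45.4%. Neither species listed it in any other organ, and its levels were 2476 RPM in C. frutescens and 2771 RPM in C. chinense. The ratio of C. frutescens over C. chinense was 0.894 (95% counting interval 0.832 to 0.959) and turned to 1.11 when scaled to predicted reads alone. Without P26 the shared part of the predicted reads was 37.9% for the C. frutescens flower and 13.0% for the C. chinense flower. With the top shared sequence of each library left out in the same way, C. frutescens flower was still the highest of its species, while C. chinense flower was the lowest of its species. Over all libraries P26 held 52.0% of the reads of shared sequences.

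The other arm of the P26 hairpin was listed as well. In C. frutescens flower it was P27, with 130 reads beside 1027, and in C. chinense flower a text shorter by 2 bases had 7 reads beside 3010. P27 was shared through C. frutescens fruit, where it had 141 reads, and there its 3p partner was a 26 nt text with 4331 reads, the highest count of any predicted sequence. That text is P26 with a further U at its 3′ end, and the rule on identical texts does not count it with P26. The texts of this hairpin are shown together, with the bases common to both 3p texts in capitals.
P26, flower of both species: AUCUUGCCGAUUCCGUCCAUACCGC
3p text of C. frutescens fruit: AUCUUGCCGAUUCCGUCCAUACCGCu
P27, 5p text of C. frutescens flower and fruit: uggugugggcggggcgggaagaua
5p text of C. chinense flower: gugugggcggggcgggaagaua
A computed duplex of P27 with P26 paired 21 bases of each arm at -34.9 kcal per mol. The shorter 5p text paired 20 bases at -30.9 kcal per mol. These values are properties of the letters, since the hairpins themselves were not analysed here.

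P1, listed most widely, had 136, 33 and 35 reads in stem, fruit and leaf of C. frutescens and 17, 19 and 56 in the same organs of C. chinense. Neither flower list holds it. Its level ran from 12 RPM in C. chinense stem (95% exact interval 7.0 to 19.2) to 142 in C. frutescens leaf (98.6 to 197). As a share of predicted reads both ends changed, from 0.216% in C. frutescens fruit to 6.92% in C. chinense leaf. A 22 nt text that is P1 without its last base had 5 reads in C. chinense flower. Counting that text, the stretch was listed in 7 of 8 libraries and missed only in C. frutescens flower, where 3 reads would equal 7.23 RPM.

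P1 and P26 were the shared sequences whose longest run in common with a conserved text, at 12 or more bases, fell on entries named miR482 or miR2118. These related families target disease resistance genes of the NBS-LRR class in Solanaceae and legumes. P1 has 17 bases in a row (5 to 21) in common with texts listed as stu-miR482b-3p and vun-miR2118, and P26 has 13 (2 to 14). The runs are in capitals, beside one such conserved text.
P1: gaaaUCUUGCCGAUUCCCCCCca
P26: aUCUUGCCGAUUCCguccauaccgc
stu-miR482b-3p text of C. chinense stem: ucuugccgauuccccccauucc
No shared sequence was identical to a conserved text, lay inside one or enclosed one. With bdi-miR7767-5p texts P102 had 15 bases in common, and 10 others, P26 included, had 12 or 13 bases in common with some conserved text. Such a run is a description of letters and places no sequence in a family.

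P9, a 23 nt sequence of the 5p arm beginning with U, had 155 reads in C. frutescens stem, 3 in C. frutescens fruit and 112 in C. chinense fruit. It was the predicted sequence with most reads in C. frutescens stem and in C. chinense fruit. In fruit its level was 3.15 RPM in C. frutescens (95% exact interval 0.649 to 9.20) and 182 in C. chinense (150 to 219), 57.8-fold higher in C. chinense (counting interval 19.3 to 285). Scaled to predicted reads alone it was 373-fold higher in C. chinense. The stem of C. chinense did not list it. P9 was thus highest in stem in C. frutescens and listed in fruit alone in C. chinense, on 1 library each.

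Levels of a member could also differ widely between organs of one species. P28 had 7 reads in stem and 152 in fruit of C. frutescens, 25.9-fold apart in level, the widest gap among the members listed in exactly 2 libraries. Scaled to predicted reads P28 was 2.89-fold apart and 36th by gap, and P40, listed in flower and fruit of C. chinense, was the widest at 34.8-fold. Over those 94 members the median gap was 1.68-fold and 19 lay 4-fold or more apart, or 2.43-fold and 27 when scaled to predicted reads. P29, with 14 reads (56.6 RPM) from leaf of C. frutescens and 139 (98.3 RPM) from stem of C. chinense, was 1.73-fold apart, or 2.71-fold scaled to predicted reads.

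Of the members listed in C. frutescens alone, P27 and P28 had most reads. P11 had 48, 20 and 12 reads in stem, flower and leaf, at 42.3, 48.2 and 48.5 RPM, and the leaf value has an exact interval of 25.1 to 84.8. As a share of predicted reads P11 was 2.36%, 0.984% and 1.78%, up to 2.40-fold apart. P12 had 41, 26 and 3 reads in the same organs. The members of C. chinense alone with most reads were each listed in 2 of its libraries, and they were chosen for mention after their values were seen. P30, which had most reads of any predicted sequence in C. chinense leaf, had 18 in flower and 62 in leaf. P32 had 32 in flower and 43 in fruit, P33 had 31 in flower and 38 in leaf, P36 had 36 in stem and 25 in flower, and P37 had 31 in flower and 19 in fruit. Of those in 3 libraries, P15 had 11, 21 and 6 reads in stem, flower and leaf, P16 had 12, 8 and 3 in stem, flower and fruit, and P18 had 5, 3 and 12 in flower, fruit and leaf. P10 shows the limit of such calls, with 44 and 31 reads in stem and flower of C. frutescens and 7 in leaf of C. chinense. A member listed in one species may have fallen under the minimum of 3 reads in the other. It may also be listed there with moved ends. P27 without its first 2 bases had 7 reads in C. chinense flower. P33 is P2 with a U added, and flower and leaf of C. frutescens list P2.

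Within an organ, 16 shared sequences gave 19 comparisons of the species. Of these 19, 3 were 4-fold or more apart, where 23.4% of the 1369 conserved entries listed in both libraries of an organ were. Conserved entries were matched by name whatever their text, and without a minimum of 3 reads. In stem, stu-miR482b-3p had 1 read in C. frutescens and 9 of a different text in C. chinense. The background is thus of an unlike unit, and part of its calls may come from naming. Of the 3 comparisons apart, 2 were higher in C. frutescens and 1 in C. chinense, beside 17% and 6.43% of the conserved entries. Scaled to predicted reads 1 was higher in C. frutescens, P1 in stem, and 3 in C. chinense, P1, P9 and P21 in fruit. P1 in stem and P9 in fruit were the 2 apart under both scalings. Scaling to predicted reads shifts every ratio of an organ by the same factor. No background was computed under it, so its counts cannot be set beside the conserved shares. By organ the 3 apart in RPM were 1 of 9 in stem, 0 of 3 in flower, 1 of 4 in fruit and 1 of 3 in leaf, beside 19.5%, 27.7%, 32.8% and 13.8% of the conserved entries. With so few comparisons the shares of the shared sequences cannot be judged against this background, and nothing is read from them. In 8 of the 19 the libraries together had 10 or more reads, and these 8 include the 3, where 44.9% of the conserved entries with as many reads were 4-fold or more apart. At 50 or more reads 2 of 5 were, beside 47.4%.

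P1 in stem was one of the 3, at 120 RPM in C. frutescens and 12 in C. chinense, a ratio of 9.97 (counting interval 6.0 to 17.6). In leaf P1 stood at 142 in C. frutescens and 68.9 in C. chinense, a ratio of 2.05 (1.31 to 3.19), and in fruit at 34.6 and 30.9, a ratio of 1.12 (0.619 to 2.09). Scaled to predicted reads alone the stem ratio was 9.74, but the leaf ratio turned to 0.750 and the fruit ratio to 0.174. P77 in leaf was the other one higher in C. frutescens, with 9 reads against 3 and a ratio of 9.86 (2.46 to 56.6), or 3.60 scaled to predicted reads. P9 in fruit was the one higher in C. chinense. P4, with 33 reads in C. frutescens fruit and 10 in C. chinense fruit, had a ratio of 2.13 (1.03 to 4.85), which turned to 0.330 scaled to predicted reads. P66, with 11 reads in C. frutescens stem and 4 in C. chinense stem, had 3.43 (1.02 to 14.8), and P23, with 3 flower reads in C. frutescens and 5 in C. chinense, had 1.57 (0.244 to 8.08).

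**Figure D3:**
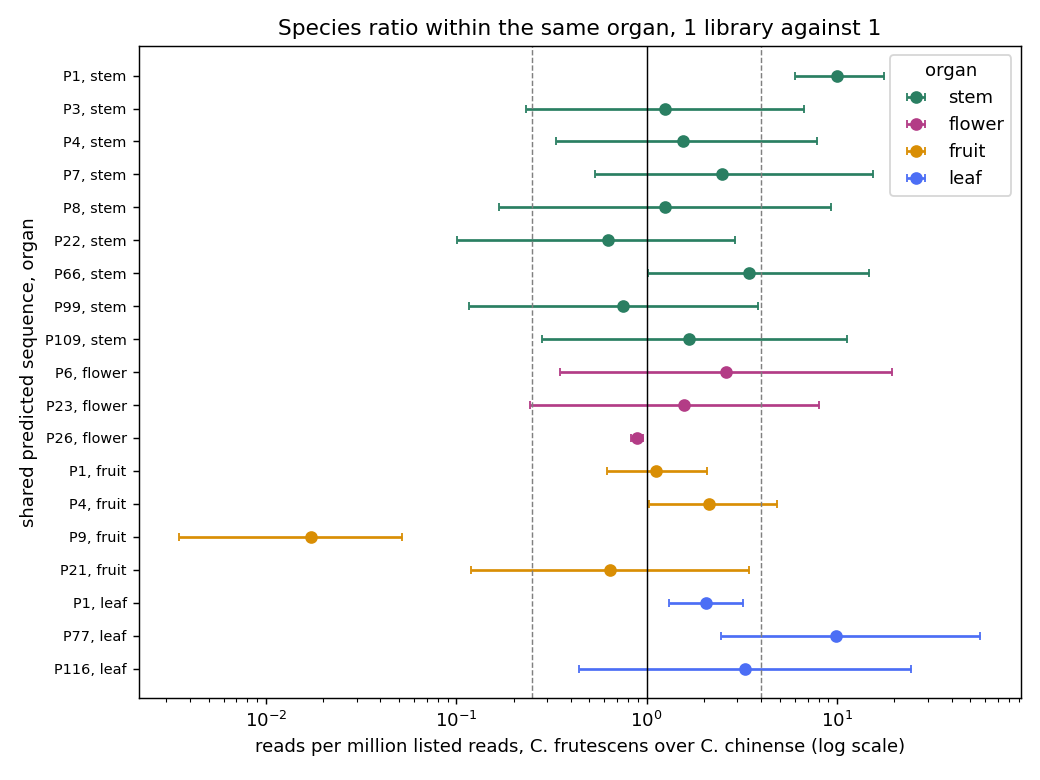
Ratio of RPM (reads per 1000000 listed reads), C. frutescens over C. chinense, for each shared sequence listed in both species in the same organ (points, log axis; bars, 95% counting intervals; dashed lines, 4-fold). P1 in stem and P77 in leaf lie right of the upper line, P9 in fruit lies left of the lower line, and P26 in flower, at 0.894, has the narrowest interval.

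In length, shared sequences centred on 23 nt. Of 119, 71 (59.7%, 95% exact interval 50.3 to 68.6) were 23 nt, against 1100 of 3106 (35.4%, 33.7 to 37.1) of the sequences listed in 1 library. The 24 nt class held 23 shared sequences (19.3%, 12.7 to 27.6) against 1082 (34.8%, 33.2 to 36.5), and the 22 nt class 20 (16.8%) against 508 (16.4%). The canonical 21 nt length was rare in both, with 3 shared sequences (2.52%), P5 among them, and 209 others (6.73%). In each of the 8 libraries taken by itself the share of 23 nt was higher among shared sequences, between 31.6% and 71.4%, than among the rest, between 29.8% and 44.3%. In C. frutescens leaf the shares were close, 31.6% of 19 against 30% of 70. A member counts in every library that lists it, so the 8 libraries are not separate sets of sequences. For 24 nt it was lower among shared sequences in 7 of 8 libraries, the exception being C. frutescens leaf. The pooled 24 nt values also reflect the make-up of the groups. C. frutescens fruit held 1198 of the 3106 sequences in 1 library, 46.1% of them 24 nt, but listed 29 shared sequences. In the other libraries 24.3% to 40.2% of the sequences in 1 library were 24 nt.

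At the first base, shared sequences began with U in 39 cases (32.8%, 24.4 to 42.0), with C in 30 (25.2%), with G in 29 (24.4%) and with A in 21 (17.6%, 11.3 to 25.7). Sequences listed in 1 library began with U in 29.8%, with A in 29%, with G in 22.4% and with C in 18.8%. A first A was less frequent among shared sequences in all 8 libraries, while a first U was more frequent in 4 and less frequent in 4. For a first A the shares were close in C. frutescens flower, 17.2% of 29 against 19.6% of 107. Among the 24 nt members 13 of 23 began with U and 2 with A, against 331 and 290 of 1082 for 24 nt sequences in 1 library. No test of these differences was run. Members that overlap in sequence are not independent, and the intervals do not allow for it. Counts over the 8 libraries take a member again in each library that lists it.

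**Figure D4:**
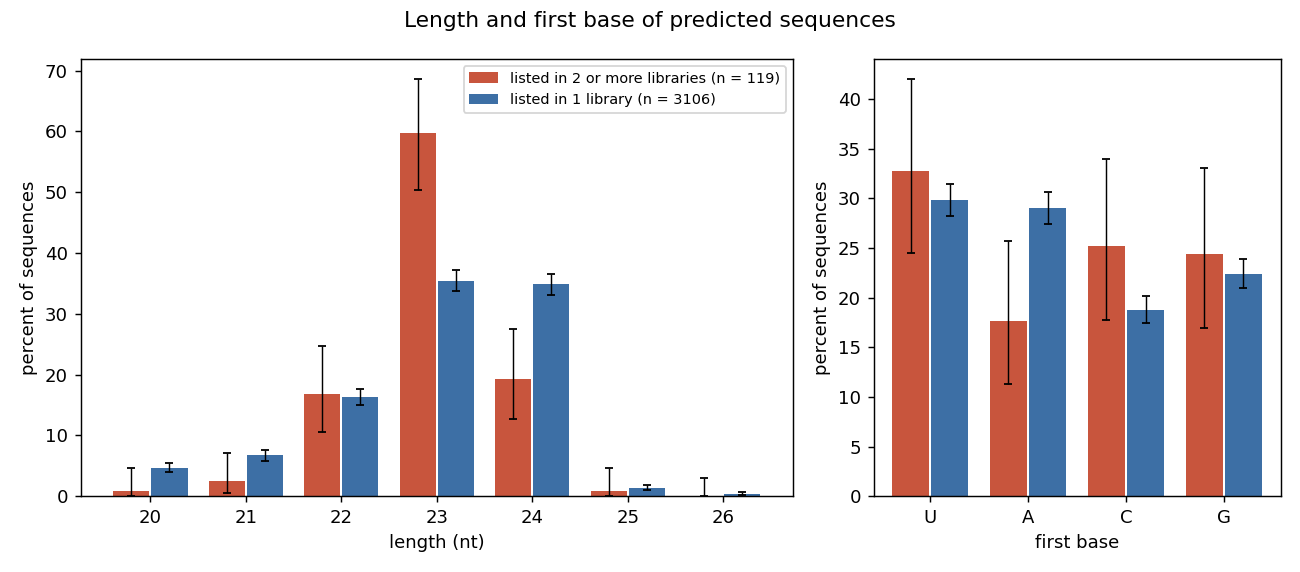
Percent of predicted sequences of each length (left, 20 to 26 nt) and with each first base (right) among the 119 listed in 2 or more libraries and the 3106 listed in 1 library, with 95% exact binomial intervals. The shared bar stands higher at 23 nt (59.7% against 35.4%) and lower at 24 nt and for a first A.

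The arm in the identifier did not change between libraries: 64 shared sequences (53.8%) were named for the 3p arm and 55 (46.2%) for the 5p arm in every listing, and none for both. Among sequences in 1 library, 51.4% were named for 3p and 48.6% for 5p. By species the 3p arm held 32 of the 54 members listed in both, 12 of the 24 of C. frutescens alone and 20 of the 41 of C. chinense alone. The hairpin number behind the arm changed: in 2 cases only did a member carry the same number in 2 libraries, so identifiers cannot be matched across lists.

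The other arm of a member's hairpin was seldom listed. Of the 274 hairpins of a library that held a member, 11 (4.01%) had both arms listed, against 158 of the 2943 others (5.37%). The flower list of C. frutescens held 3 hairpins with a shared sequence on each arm, P27 with P26, P117 with P86, and P91 with P49. The hairpin of P117 and P86 recurred in leaf of C. chinense. In the C. frutescens flower P117 had 1 read and P86 had 3, and in the C. chinense leaf they had 5 and 7. Their computed duplex paired 14 bases at -12.3 kcal per mol, against 21 bases at -34.9 for P27 with P26. P117 is the one member that needs a listing under 3 reads to be shared.

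Identical text gave a strict measure of sharing. Some stretches were listed in different libraries with their ends moved by 1 or more bases. When texts with an identical run of 18 or more bases were joined, a threshold chosen after seeing the data, 51 of the 119 members had at least 1 other text in their group. For 44 members the group reached more libraries than the member did. In 120 of 151 cases (79.5%) a library listed 1 text of such a group and no other. Joining is by steps, so the outer texts of a group need not overlap each other by that length. Texts of a group can also differ at an inner base, as in the groups of P67 and P119. These counts are therefore not of moved ends alone.

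P2 and P33 show moved ends most plainly. P2 had 26 and 24 reads in flower and leaf of C. frutescens and 94 and 39 in stem and fruit of C. chinense. P33, which is P2 with a U added at the 3′ end, had 31 and 38 reads in flower and leaf of C. chinense. No library listed both, and together they covered 6 libraries. P29, P31 and a text of C. chinense leaf form a like series at the 5′ end, with 14 and 139 reads for P29 in C. frutescens leaf and C. chinense stem, 15 and 65 for P31 in C. frutescens stem and C. chinense flower, and 24 for the third. Bases common to a series are in capitals.
P2: UUUUUCACGAUGAUCGGGGUUAC
P33: UUUUUCACGAUGAUCGGGGUUACu
P29: CGAGCCCCGCUGGGACCAUAAU
P31: uCGAGCCCCGCUGGGACCAUAAU
C. chinense leaf text: uuCGAGCCCCGCUGGGACCAUAAU
A shift at the 5′ end moves the seed, as between P29 and P31, and a shift at the 3′ end leaves it, as between P2 and P33.

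P3 and P4 also overlap, by all but the first base of P3 and the last base of P4, but occur together in 3 libraries. P3 had 4 and 45 reads in stem and fruit of C. frutescens and 4 and 10 in stem and flower of C. chinense. P4 had 5 and 33 reads in the same organs of C. frutescens and 4 and 10 in stem and fruit of C. chinense. Fruit of C. frutescens was the highest library of both in reads and in RPM, and listed a further 24 nt text of this group with 18 reads. As a share of predicted reads P3 was still highest there, but P4 was highest in C. chinense fruit, at 0.656% against 0.216%. P8 had 3 and 5 reads in stem and fruit of C. frutescens and 3 and 5 in stem and leaf of C. chinense. P8, P21 and P59 form a group in 6 libraries with 44 reads in all, of which 16 fell in C. chinense stem. Of the remaining members named, P6 had 3 and 5 reads in flower and leaf of C. frutescens and 17 and 3 in stem and flower of C. chinense, and P7 had 6 reads in C. frutescens stem and 3, 5 and 3 in stem, flower and fruit of C. chinense.

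**Figure D5:**
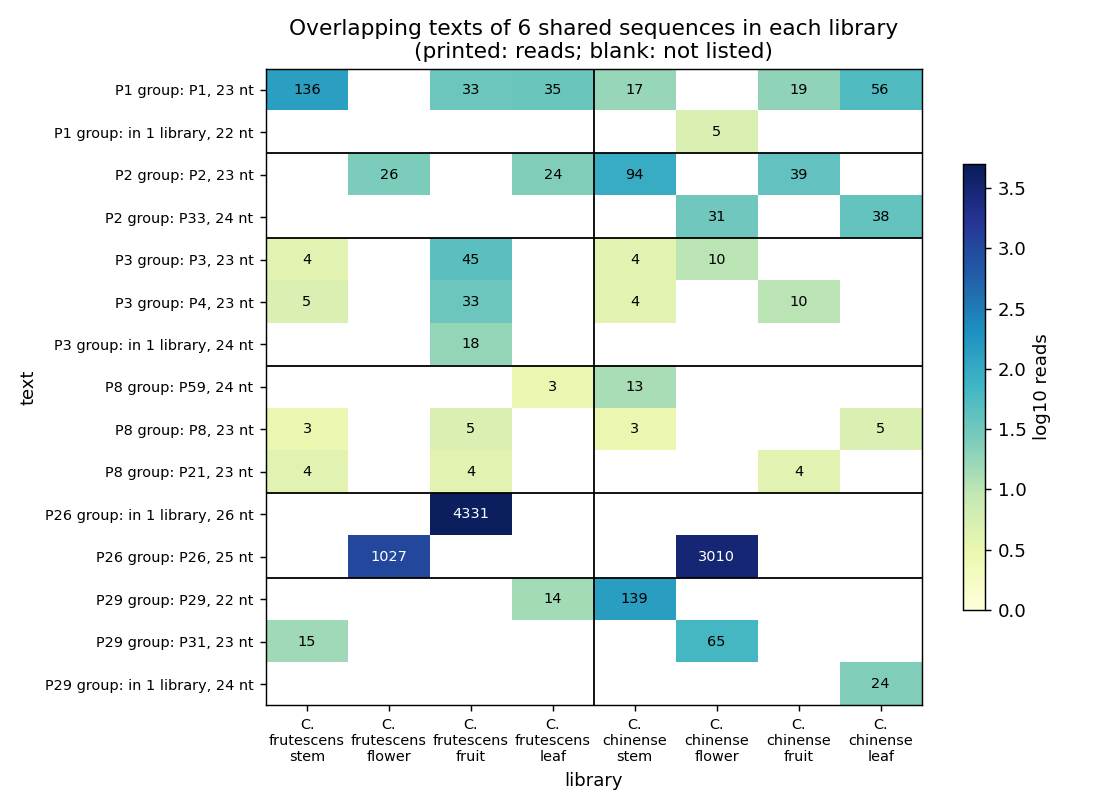
Reads of every predicted text in 6 groups of overlapping texts (rows, separated by lines, with length in nt) in the 8 libraries (columns, colour for log10 reads, blank for not listed). P2 and P33, and P29 and P31, fill different columns, P3 and P4 share 3 columns, and the 26 nt text of the P26 group stands in C. frutescens fruit alone with 4331 reads.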

How the data were processed

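Small RNA was measured in 8 libraries (TruSeq Small RNA kit, Illumina Genome Analyser II, per the labels), each of RNA pooled from 3 biological replicates. The authors deposited, per library, 1 sheet of conserved and 1 of predicted miRNA entries, 16 in all, with an identifier, a sequence and a raw read count, per the file headers. For trimming, alignment, the database, the genome build and the prediction, the tools and versions were not given in the sources used. No column was left without a sample.

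Counts were read as deposited. Texts listed under 2 identifiers in 1 library (7 texts, 5 of them shared) were summed, and how reads matching both were counted is not given. Shared sequences were identical texts in 2 or more libraries. Levels are RPM, reads per 1000000 of conserved and predicted listed reads. Shares carry exact (Clopper-Pearson) 95% binomial intervals and ratios 95% conditional binomial intervals, for counting error only. A ratio of 4-fold or more was called apart. The conserved entries listed in both libraries of an organ, matched by name whatever their text, gave the background. Duplexes were computed with RNAduplex (ViennaRNA 2.7.2), the rest with Python 3.11.15, pandas 2.3.3, numpy 2.4.6, scipy 1.17.1 and matplotlib 3.10.9, and the counting steps were tested on simulated data. With 1 library per group no test between groups was made.

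The sequences described, the lists and the measures were chosen with earlier results of these data known. Sequences were named where they were listed in 4 or more libraries, were among the 10 highest mean levels, were among the 2 with most reads in an organ of both species, were among the 3 of one species alone ordered by number of libraries and then reads, or had the highest or lowest ratio in an organ with 10 or more reads. P30, P32, P33, P36, P37 and P40 and partners of named sequences were added after their values were seen. Genome positions and hairpins were not analysed here.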

Additional observations from a re-analysis of the deposited data

How the results depend on the processing

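The 119 shared sequences, 54 of them in both species, became 24 and 11 when a listing needed 10 reads. They became 209 and 112 when texts with a common run of 18 or more bases were joined, an alternative chosen after seeing the data. Both changes follow from the construction, which removes or merges listings. Merging nested texts gave 153 and 71, a minimum of 2 or of 3 reads gave 118 and 53 (that of 3 also chosen after seeing the data), and leaving out each library gave 86 to 108 and 39 to 47. The median share of predicted reads on shared sequences, 33.1%, was 13.9% as a share of sequences, 57.3% without entries under 10 reads, 21.2% without the top shared sequence of each library and 47.6% with joined texts. A first U fell to 20.4% when weighted by reads, where P26, which begins with A, holds 52.0% of the shared reads. Against 3 comparisons 4-fold apart, 4 were when scaled to predicted reads, 2 of them the same, and 2 were among those with 50 or more reads. No background was computed for the scaling to predicted reads. That scaling turned 4 of 19 ratios. It shifts every ratio of an organ by the same factor, set by the part of listed reads that was predicted. In fruit this part was 1.60% in C. frutescens and 0.248% in C. chinense. Why the parts differ was not tested. Scaling to conserved reads turned 0. No analysis paired by replicate was possible because each group has 1 library and no replicate numbers to pair. The species could be paired by organ, but a fit over all libraries with organ as a block was not run. Depth limits the lists: 46.8% of predicted entries stand at 3 reads, and 3 reads equal 2.12 to 12.1 RPM.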

Other observations

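Joining texts by a common run of 18 or more bases also gave 99 groups listed in 2 or more libraries that hold no identical text in any pair of libraries. Of these, 85 reached 2 libraries, 12 reached 3 and 2 reached 4. The text with most reads in each of 3 such groups is shown in lower case, because these stretches recur but are missed by the rule on identical texts.
First group: ugcuauugcuccuuucuuuuuuu
Second group: agcggccgucggugcagaucuu
Last group: uacugggguaucugaucuggauuu
The first group, of 5 texts, had 3 reads in C. frutescens stem and 11, 25 and 6 in stem, flower and leaf of C. chinense. The second, also of 5 texts, had 4 and 3 reads in stem and fruit of C. frutescens and 7 and 2 in stem and fruit of C. chinense. The last, of 4 texts, had 96 reads in C. frutescens fruit and 5 and 10 in stem and flower of C. chinense.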
